A study of Mus musculus with 12 samples.

Results

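Isg15 and Usp18 were followed through all 4 conditions of a study of Rictor-deficient mouse fibroblasts and type I interferon. Their probes were taken by gene symbol alone, which gave 1 probe for Isg15 and 2 for Usp18. Gene names were available for only part of the 45281 probes of the array. Further probes of either gene may therefore exist among the unnamed ones. Isg15 and Usp18 are 2 of the 10183 genes that the probe annotation names, and 2 of the 8272 named genes tested. The cells were mouse embryonic fibroblasts (MEFs) made immortal in culture, of genotype Rictor+/+ or Rictor-/-. The protein RICTOR belongs to mTOR complex 2, which phosphorylates Akt and related kinases. Each genotype was examined untreated and after 24 h with 2500 U/ml of mouse interferon-alpha (IFN-alpha), with 3 Illumina BeadChip arrays of total RNA in each of the 4 groups (12 arrays). The labels point to 1 cell line for each genotype, so an effect of the line and of Rictor cannot be told apart. A treatment field common to all samples mentions small interfering RNAs (siRNAs) against Rictor, at odds with the knockout genotype, and the genotype fields were followed. No label ties the 3 arrays of a group to separate cultures, so p-values reflect array-to-array spread, which may be technical.

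ISG15 is a small protein made of ubiquitin-like folds that is induced by type I interferon and attached to other proteins, a modification called ISGylation. The attachment runs through a chain of enzymes that are themselves interferon-induced: the activating enzyme UBA7, the conjugating enzyme UBE2L6, and ligases such as HERC6 in the mouse and TRIM25. USP18 is the protease that takes ISG15 off its targets, and apart from this activity it binds the receptor subunit IFNAR2 and dampens interferon signalling. Both genes are classical targets of the interferon-activated complex ISGF3, which binds the interferon-stimulated response element (ISRE).

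The region before the Isg15 start is shown because the ISRE core lies there 3 times, and short stretches from genes described below are set beside it. The core searched was GAAANNGAA on both strands of the promoter windows of RefSeq (build GRCm38.p6, 250 bases before to 50 after a start). Capitals mark every core in the Isg15 sequence and a single core in each other stretch. In the Apol9a and Gbp3 stretches a further core overlaps the marked one and is left in lower case. Each sequence is printed 5′ to 3′ on the strand that carries the marked core.
Isg15, the 150 bases before its start (chr4:156200819-156200968, minus strand): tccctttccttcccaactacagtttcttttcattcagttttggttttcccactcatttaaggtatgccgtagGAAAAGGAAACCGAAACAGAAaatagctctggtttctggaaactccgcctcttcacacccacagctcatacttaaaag
Apol9a (chr15:77411119-77411148, plus strand): actgggaaatgGAAACTGAAagtctcacct
Rsad2 (chr12:26456552-26456581, plus strand): ttctgttttctGAAAATGAAagttggacca
Ifit3 (chr19:34583364-34583393, minus strand): aaccagaagagGAAAGTGAAacttaccact
Cd274 (chr19:29367352-29367381, minus strand): ccgctgtctgtGAAACCGAAgccacccagt
Samd9l (chr6:3399522-3399543, minus strand): atcgaaactgGAAACTGAAgca
Gbp3 (chr3:142559990-142560019, minus strand): tctgggaaataGAAACTGAAactgtgtcct
Trim25 (chr11:88999384-88999413, minus strand): aggaaggaatcGAAACTGAAcaggaggggc
In Isg15 the 3 cores overlapped in a single run 78 to 58 bases before the start. The Ifit3 window also held 3 cores, and windows of Apol9a and Gbp3 held 2 overlapping ones each. The windows of Rsad2, Cd274, Samd9l and Trim25 held 1 each. In Samd9l the core lay after the start, and its stretch is cut short by the end of the window. The core was present in 8.56% of all 32851 windows of the table. The Isg15 window held none of the other letters searched, which were the gamma-activated site TTCNNNGAA (8.3% of windows), TATAAA (13.6%) and CCGCCC (35.7%). Of 17 genes looked up, 14 had a window and 8 of these held the core. Usp18 had no window, so its promoter was not searched. A match is a description of these letters and not a binding site, and the genes shown other than Isg15 and Trim25 were chosen from expression on these arrays.

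The arrays fell into 2 sets by background, the mode of an array's signals. It was 210.8 to 240.5 on arrays 1 to 6 and 107.6 to 127.9 on arrays 7 to 12, numbered as in the sample titles. Arrays 1 to 6 held 2 arrays of each Rictor+/+ group and 1 of each Rictor-/- group, and arrays 7 to 12 the reverse, so set and genotype coincide in part, and values within each set are given below beside the pooled ones. Total signal was 39160400 to 62338100, apart from array 12 (IFN-treated Rictor-/-) with 21292300. All 10 fibroblast markers listed were above background on all 12 arrays. Of the annotated markers of other cells, Lyz2 (leukocyte and macrophage), Epcam (epithelial) and Siglech (plasmacytoid dendritic cell) were above background on no array, while Cd14 (leukocyte and macrophage), Bst2 and Tcf4 (plasmacytoid dendritic cell) were above it on all 12. The summed level of the 3 leukocyte and macrophage markers annotated was 244.8 to 400.5 on Rictor+/+ and 849 to 1273 on Rictor-/- arrays. That of the 3 plasmacytoid markers, of which Bst2 is itself interferon-induced, was 6293 to 12270 without and 16520 to 25470 with IFN-alpha. Their part in the results was not tested. The Rictor probe was near background, with a log2 difference between untreated lines of 0.26 ± 0.49 (limma adjusted p = 0.796), and since its place relative to the deletion is not known it checks nothing. In bulk RNA, fewer responding cells and less RNA per cell cannot be told apart.

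IFN-alpha raised Isg15 in both lines, from a level that was already clearly measurable in Rictor+/+ cells and close to background in Rictor-/- cells. In untreated Rictor+/+ cells the Isg15 signal, in arbitrary units of bead brightness, was 1942.6, 1961.6 and 1737.2 on arrays 1, 5 and 9. With IFN-alpha it was 55197.1, 54654.8 and 43139.9 on arrays 2, 6 and 10. These treated signals stood at 67.78% to 78.41% of the brightest signal on the array, with only 79 to 116 probes brighter. In untreated Rictor-/- cells it was 393.7, 236.4 and 200.7 on arrays 3, 7 and 11, which was above background on all 3. With IFN-alpha it was 16076.2, 16982.4 and 4414.4 on arrays 4, 8 and 12. The low value of array 12 went with the low total signal of that array, and after normalization array 12 (13.48 on the log2 scale) lay beside array 4 (13.55). The 4 groups did not overlap.

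On the normalized log2 scale the Isg15 level was 15.64 ± 0.11 (SD, n = 3) in IFN-treated Rictor+/+, 13.66 ± 0.26 in IFN-treated Rictor-/-, 10.63 ± 0.26 in untreated Rictor+/+ and 7.22 ± 0.48 in the untreated Rictor-/- line. The step from IFN-treated Rictor-/- to untreated Rictor+/+ cells was not tested. The rise was 5.01 ± 0.26 (SE) on the log2 scale in Rictor+/+ cells, or 32.3-fold (limma adjusted p = 6.96e-08), and ranked 42 among 17262 features. In Rictor-/- cells it was 6.44 ± 0.26, or 87.1-fold (limma adjusted p = 2.54e-08), and ranked 4. The rise in Rictor+/+ cells was 4.91 within arrays 1 to 6 and 5.22 within arrays 7 to 12. In Rictor-/- cells it was 5.83 and 6.75 in these sets, and 6.54 with array 12 left out. Without background correction it was 5.41, since the untreated level is low.

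Without IFN-alpha, Isg15 was 10.65-fold lower in Rictor-/- than in Rictor+/+ cells (log2 difference -3.41 ± 0.26, limma adjusted p = 1.26e-06). The difference was -2.98 within arrays 1 to 6 and -3.53 within arrays 7 to 12, and it passed the threshold in both. Without background correction it was -2.50. With IFN-alpha, Isg15 was 3.95-fold lower in Rictor-/- cells (log2 difference -1.98 ± 0.26, limma adjusted p = 0.000137). That difference was -2.06 within arrays 1 to 6 and -2.00 within arrays 7 to 12, where the adjusted p was 0.0561, and it was -1.89 (adjusted p = 0.000654) with array 12 left out. The response of Rictor-/- cells exceeded that of Rictor+/+ cells by 1.43 ± 0.36 on the log2 scale (95% interval 0.64 to 2.22). The difference of responses had an unadjusted limma p of 0.00181 and an adjusted p of 0.23 and was not called. It was 0.53 without background correction and 1.55 with array weights, where its adjusted p was 0.0131.

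**Figure D1:**
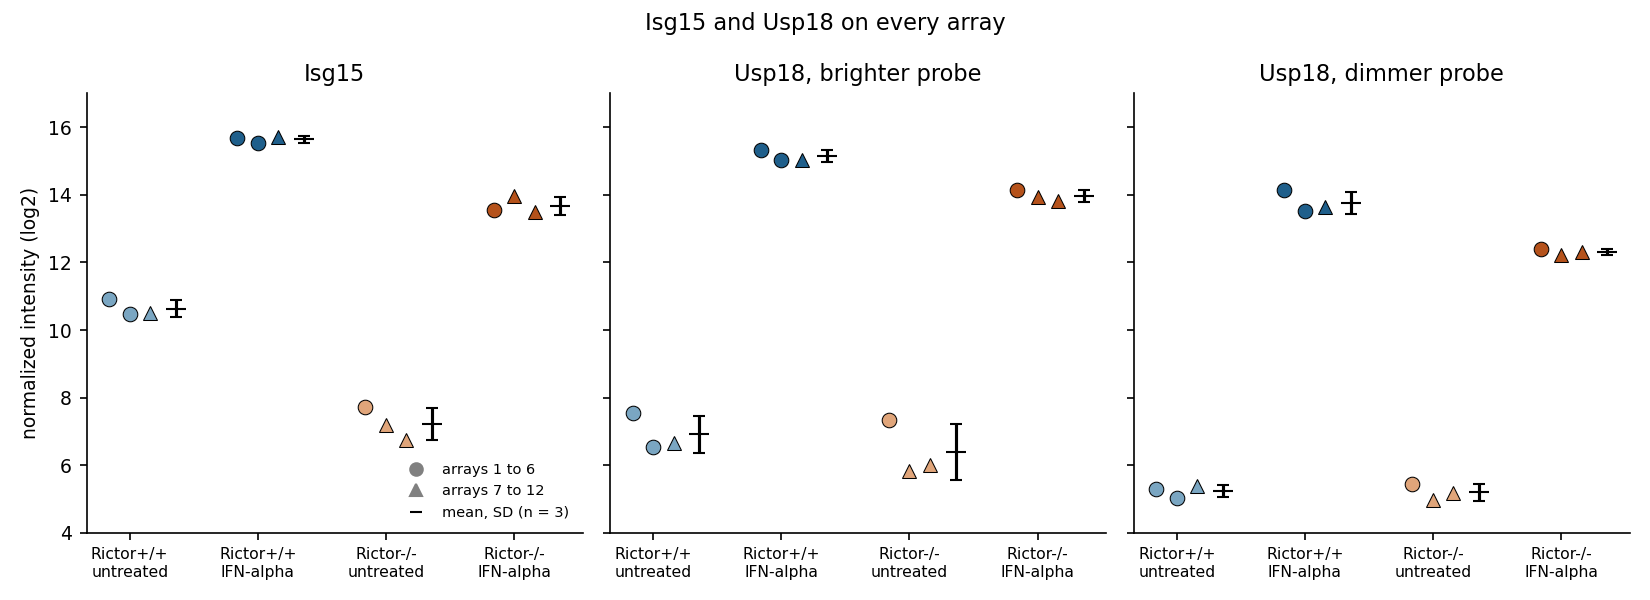
Normalized log2 intensity (vertical axis) of the Isg15 probe and both Usp18 probes on each of the 12 arrays, by group. Circles are arrays 1 to 6 and triangles arrays 7 to 12, and the bar beside each group is its mean and SD (n = 3). The Isg15 groups are separate at all 4 levels, while the untreated Usp18 groups of both genotypes overlap near the bottom of the scale.

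Usp18 was raised by IFN-alpha from near background in both lines. On its brighter probe the signal in untreated Rictor+/+ cells was 357.8, 331.5 and 211.2 on arrays 1, 5 and 9. With IFN-alpha it reached 43841.2, 40400.3 and 26479.9 on arrays 2, 6 and 10. In untreated Rictor-/- cells it was 345.4, 154.9 and 161 on arrays 3, 7 and 11, and array 7 was not above background. With IFN-alpha it was 24025.3, 16521.2 and 5492.4 on arrays 4, 8 and 12. Treated and untreated arrays did not overlap in either line, and untreated arrays of the 2 lines did.

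The normalized log2 level of this probe was 15.14 ± 0.17 (SD, n = 3) in IFN-treated Rictor+/+ and 13.97 ± 0.17 in IFN-treated Rictor-/- cells. Without treatment it was 6.91 ± 0.56 in Rictor+/+ and 6.39 ± 0.82 in Rictor-/- cells, and these groups differed by less than their spread. The rise was 8.23 ± 0.37 (SE) in Rictor+/+ cells, or 299.8-fold (limma adjusted p = 3.05e-08), and 7.58 ± 0.37 in Rictor-/- cells, or 191.7-fold (limma adjusted p = 1.14e-07). It ranked 2 among all features in both lines. Within arrays 1 to 6 and within arrays 7 to 12 it was 8.15 and 8.39 in Rictor+/+ cells, and 6.83 and 7.96 in Rictor-/- cells. Because the untreated level is close to background, the size of the rise moved with the correction for it, to 7.02 in Rictor+/+ and 6.05 in Rictor-/- cells without any.

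The untreated difference of Usp18 between the lines was -0.53 ± 0.37 on the log2 scale (95% interval -1.33 to 0.27, limma adjusted p = 0.416). It was 0.28 within arrays 1 to 6 and -0.74 within arrays 7 to 12, and -0.66 (adjusted p = 0.0411) with array weights. With IFN-alpha, Usp18 was 2.25-fold lower in Rictor-/- cells (log2 difference -1.17 ± 0.37), with a limma adjusted p of 0.0477 just under the threshold. This call was lost within arrays 1 to 6 (-1.04, adjusted p = 0.3) and within arrays 7 to 12 (-1.17, adjusted p = 0.148). It was also lost with array 2, 4, 5, 6, 8, 9, 10, 11 or 12 left out, with adjusted p-values of 0.0546 to 0.148 and differences of -1.27 to -1.07. The responses of the 2 lines differed by -0.65 ± 0.52 (95% interval -1.78 to 0.49, limma adjusted p = 0.995). With 1 array left out this difference was -0.96 (without array 1) to -0.17 (without array 3). It was -0.97 without background correction (limma adjusted p = 0.266) and -1.42 on the dimmer probe described next (limma adjusted p = 0.106), whose untreated levels are below background.

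The dimmer Usp18 probe was below background on all 6 untreated arrays, so its rises are lower bounds. With IFN-alpha its signal was 20603.7, 15331.5 and 11258.1 in Rictor+/+ cells on arrays 2, 6 and 10, and 7174.7, 4827.7 and 1836.1 in Rictor-/- cells on arrays 4, 8 and 12. It rose at least 188.5-fold in Rictor+/+ (limma adjusted p = 3.22e-10) and at least 73.89-fold in Rictor-/- cells (limma adjusted p = 3.06e-09), where each bound is taken against the background limit. With IFN-alpha it was 2.75-fold lower in Rictor-/- than in Rictor+/+ cells (log2 difference -1.46 ± 0.22, limma adjusted p = 0.000449), the direction of the brighter probe. Both probes read the same gene in the same RNA and are not replicates of each other.

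Over all 17262 features, 2.14% were called higher and 0.319% lower with IFN-alpha in Rictor+/+ cells, and 0.794% higher and 0.0406% lower in Rictor-/- cells. Isg15 and Usp18 were both among those called higher in each line. In untreated Rictor-/- against Rictor+/+ cells 6.49% were called higher and 6.85% lower, with Isg15 among the latter and Usp18 not called. With IFN-alpha 7.34% were called higher and 8.94% lower, with both genes among the latter. For the difference of responses 0.0174% were called higher and 0.365% lower, and neither gene was called.

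The balance of the 2 genes was taken on each array as the log2 level of the brighter Usp18 probe minus that of Isg15. Levels of different probes cannot be compared, so only differences of this balance between groups are read. These restate the differences of the 2 genes given above, array by array, and are a description with no test. On array 7 the Usp18 probe was not above background. On the log2 scale it was -3.37, -3.93 and -3.85 in untreated Rictor+/+ cells on arrays 1, 5 and 9, and -0.35, -0.48 and -0.68 with IFN-alpha on arrays 2, 6 and 10. In untreated Rictor-/- cells it was -0.39, -1.37 and -0.73 on arrays 3, 7 and 11, and with IFN-alpha 0.61, -0.03 and 0.34 on arrays 4, 8 and 12. Within each treatment every Rictor-/- array lay above every Rictor+/+ array, and within each genotype every treated array lay above every untreated array.

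Averaged over treatments, the balance was 1.85 higher on the log2 scale in Rictor-/- than in Rictor+/+ cells. Averaged over genotypes it was 2.18 higher with IFN-alpha than without. The genotype difference was 2.88 in untreated and 0.81 in IFN-treated cells, and the treatment difference was 3.21 in Rictor+/+ and 1.14 in Rictor-/- cells. The genotype difference was 2.14 within arrays 1 to 6 and 1.81 within arrays 7 to 12. The treatment difference was 2.12 and 2.19 in these sets, and 1.39 without background correction. The dimmer Usp18 probe was above background only with IFN-alpha, where its balance was -1.56, -2.00 and -2.08 in Rictor+/+ cells on arrays 2, 6 and 10. It was -1.15, -1.75 and -1.17 in Rictor-/- cells on arrays 4, 8 and 12, and the groups overlapped.

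**Figure D2:**
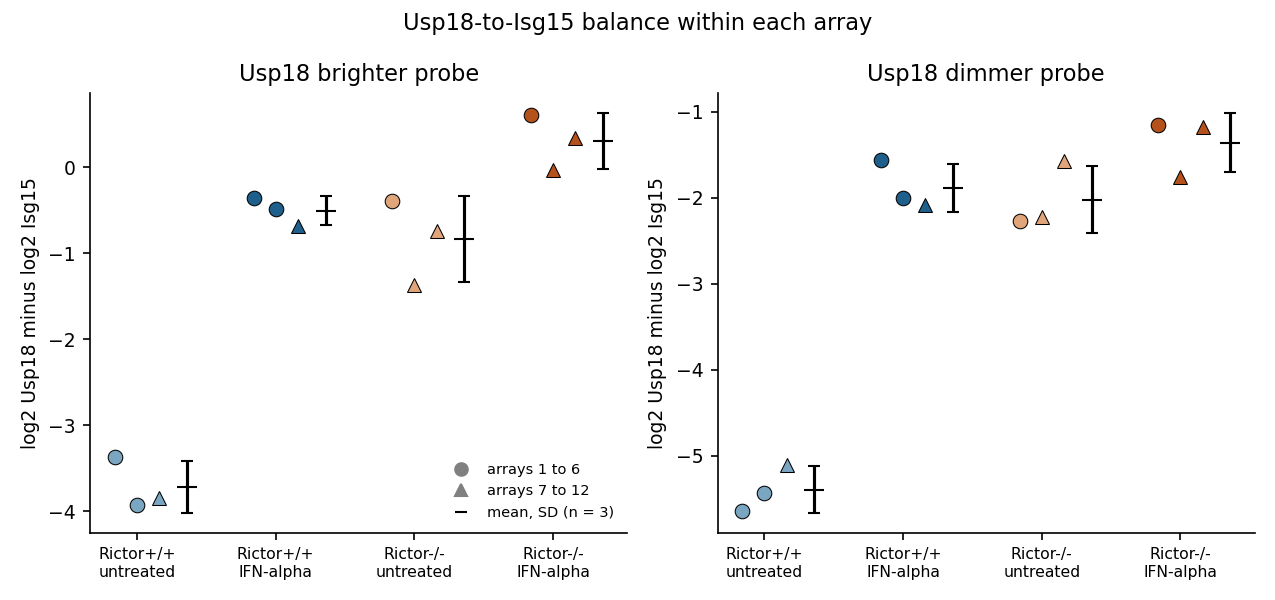
Balance of Usp18 to Isg15 (vertical axis, log2 Usp18 minus log2 Isg15) on each of the 12 arrays by group, with the brighter Usp18 probe on the left and the dimmer on the right. Circles are arrays 1 to 6, triangles arrays 7 to 12, and bars the mean and SD (n = 3). On untreated arrays the dimmer probe is below background, so its points there are not measured sizes; with the brighter probe the untreated Rictor+/+ arrays lie lowest, at -3.93 to -3.37, and the IFN-treated Rictor-/- arrays highest, at -0.03 to 0.61.

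The enzymes that attach ISG15 were next set beside its protease. Of 8 genes of ISGylation listed, Isg15 and Usp18 included, 5 were measured, and Herc5, Herc6 and Arih1 were not analysed here. IFN-alpha raised 4 of the 5 in Rictor+/+ and 5 of the 5 in Rictor-/- cells, with median log2 changes of 3.60 and 4.10 against -0.05 and -0.04 over all features. Leaving out Isg15 and Usp18, 2 of 3 and 3 of 3 rose. Over all features 2.14% and 0.794% were called higher.

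Uba7, the activating enzyme at the head of the chain, had signals of 1962.9, 1207.3 and 770.8 in untreated Rictor+/+ cells on arrays 1, 5 and 9, and 13464.9, 11048.6 and 9188.9 with IFN-alpha on arrays 2, 6 and 10. In Rictor-/- cells they were 951.9, 439.1 and 241.6 on arrays 3, 7 and 11, and 8829.8, 5519.9 and 2370.6 on arrays 4, 8 and 12. Treated and untreated arrays were separate in both lines. Uba7 rose 10.2-fold in Rictor+/+ (log2 3.35 ± 0.52, limma adjusted p = 0.00196) and 17.1-fold in Rictor-/- cells (4.10 ± 0.52, limma adjusted p = 0.000643). Its untreated difference between lines was -1.44 ± 0.52 (limma adjusted p = 0.0904) and did not pass the test.

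Ube2l6, the conjugating enzyme, rose by nearly equal amounts in both lines. Its signals were 695.9, 690.9 and 426.5 in untreated and 7207.5, 5814.5 and 3918.4 in IFN-treated Rictor+/+ cells. In Rictor-/- cells they were 627.6, 368.9 and 349.5 untreated and 5651.8, 4323.2 and 1314.3 with IFN-alpha. The rise was 12.1-fold in Rictor+/+ (log2 3.60 ± 0.29, limma adjusted p = 3.56e-06) and 12.1-fold in Rictor-/- cells (3.60 ± 0.29, limma adjusted p = 8.08e-06), and the 95% interval of the difference of these responses was -0.88 to 0.88. The other Ube2l6 probe rose by 3.83 ± 0.27 in Rictor+/+ and 3.50 ± 0.27 in Rictor-/- cells.

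Trim25, a ligase for ISG15 and for ubiquitin, was above background only in Rictor-/- cells. On its brighter probe it was below background on all 6 Rictor+/+ arrays, treated or not, with signals of 86 to 185.4. In Rictor-/- cells the signal was 1269.4, 1006.3 and 932.1 on arrays 3, 7 and 11, and 6960.4, 4785.5 and 2413.5 with IFN-alpha on arrays 4, 8 and 12. It was at least 13.7-fold higher in untreated Rictor-/- than in Rictor+/+ cells (limma adjusted p = 3.23e-09) and at least 78.73-fold higher with IFN-alpha (limma adjusted p = 1.83e-10). It rose 5.36-fold with IFN-alpha in Rictor-/- cells (log2 2.42 ± 0.19, limma adjusted p = 8.23e-06). Trim25 was the only measured gene of ISGylation whose responses in the 2 lines differed by the limma test (adjusted p = 0.000638), a difference that rests on Rictor+/+ levels below background. Its other probe was below background in Rictor+/+ cells too, and its responses differed with a limma adjusted p of 0.00709. The bounds between lines were much lower on that probe, which was above background on 2 of 3 untreated Rictor-/- arrays. It was at least 1.005-fold higher in untreated Rictor-/- cells (limma adjusted p = 0.0346) and at least 5.83-fold higher with IFN-alpha (limma adjusted p = 1.3e-06).

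**Figure D3:**
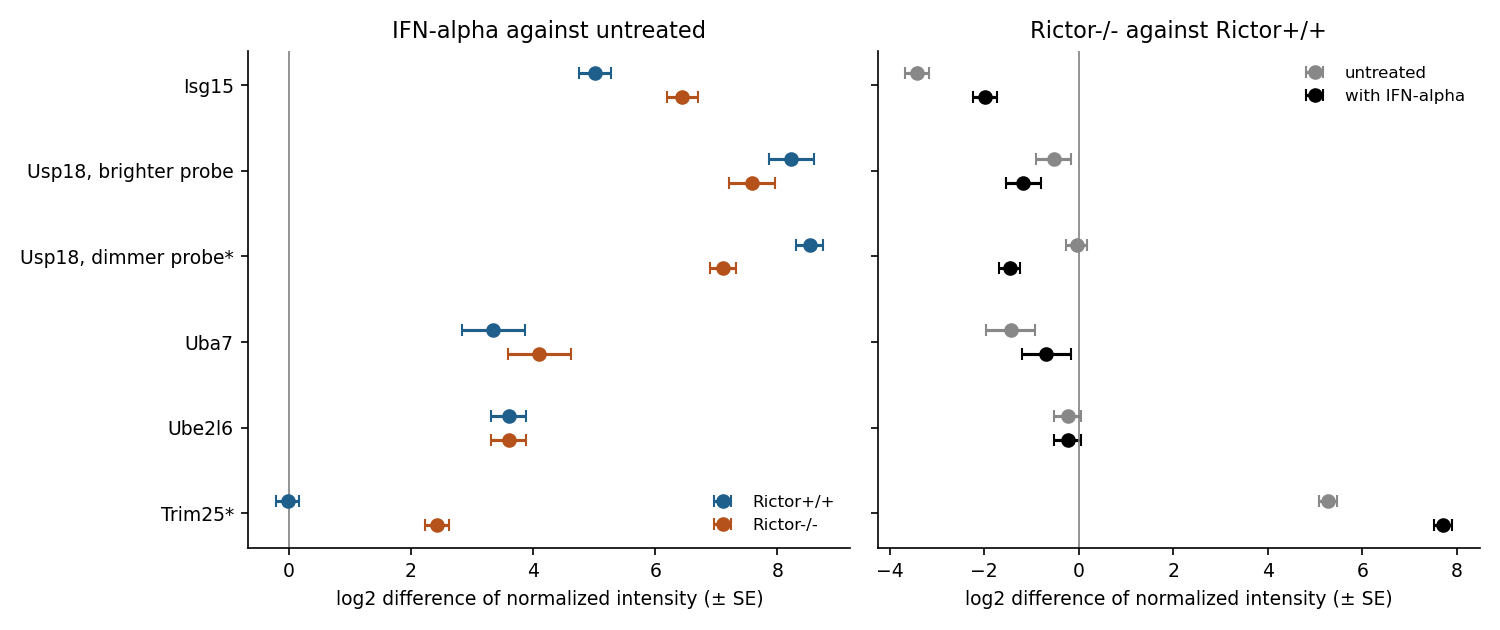
Log2 differences of normalized intensity with their SE (horizontal axes, n = 3 arrays per group) for the 5 measured genes of ISGylation, with both Usp18 probes. The left panel shows IFN-alpha against untreated in each genotype and the right panel the Rictor-/- against the Rictor+/+ line in each condition; an asterisk marks probes below background in a whole group, whose fitted values are not measured sizes. Isg15 lies left of 0 on the right panel in both conditions (-3.41 and -1.98) and Ube2l6 near 0 (-0.23 in each).

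Usp18 was then set beside the other ubiquitin-specific proteases. Of 29 other genes with a Usp symbol, 25 were tested. IFN-alpha raised 2 of them in Rictor+/+ cells and 0 in Rictor-/- cells at the limma threshold. In either direction 5 and 2 had an unadjusted limma p under 0.05. Over all 17262 features 2.14% and 0.794% were called higher, and 1593 and 1118 had such an unadjusted p. The median log2 changes of the 25 Usp genes were 0.13 and -0.09. Usp25, a ubiquitin protease with roles in innate signalling, rose by 2.22 ± 0.39 in Rictor+/+ cells (limma adjusted p = 0.00514) and had a change of 1.27 ± 0.39 in Rictor-/- cells (limma adjusted p = 0.413). Usp12, a ubiquitin protease that works with WD-repeat cofactors, rose by 1.62 ± 0.30 (limma adjusted p = 0.00783) and had a change of 0.88 ± 0.30 in Rictor-/- cells (limma adjusted p = 0.54). No difference of responses was called by limma among the 25, and 0 had an unadjusted p under 0.05, against 945 of all 17262 features. Between IFN-treated lines, where Usp18 was called lower in Rictor-/- cells, 5 of the 25 were called lower and 1 higher. Over all features 8.94% were called lower and 7.34% higher there. Of the 25, 15 had an unadjusted limma p under 0.05 in that comparison, against 4920 of all 17262 features. Usp14, the only measured member of 5 other proteases reported to act on ISG15, had changes of -0.22 and -0.37 and was not called in either line. Of 15 other ubiquitin-like modifiers and ubiquitin genes listed, 7 were tested, with log2 changes of -0.41 to 0.91 in Rictor+/+ and -0.41 to 0.24 in Rictor-/- cells, none of them called by limma (1 and 0 at an unadjusted p under 0.05).

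Around the receptor at which USP18 acts, 10 of 12 listed genes of the receptor complex and other dampeners were tested. Stat2 and Irf9, which encode subunits of ISGF3, rose in both lines. Stat2 rose by 3.30 ± 0.32 in Rictor+/+ (limma adjusted p = 2.84e-05) and 2.54 ± 0.32 in Rictor-/- cells (limma adjusted p = 0.00071), and Irf9 by 2.64 ± 0.33 (limma adjusted p = 0.000306) and 2.68 ± 0.33 (limma adjusted p = 0.000566). Socs1, an inhibitor of JAK kinases, rose by 2.67 ± 0.43 in Rictor+/+ cells (limma adjusted p = 0.00269). In Rictor-/- cells its change was not called (limma adjusted p = 0.813), with Socs1 below background on all untreated and 1 of 3 treated arrays. The other 7 genes were not called with IFN-alpha in Rictor+/+ cells. No difference of responses was called by limma among the 10, and 3 had an unadjusted p under 0.05, against 945 of all 17262 features. In untreated cells 2 of the 10 were called lower in Rictor-/- than in Rictor+/+ cells, against 6.85% of all features. Neither was called with IFN-alpha, and both are named after their values were seen. They were Ifnar2, the receptor subunit that USP18 binds (log2 difference -0.99 ± 0.27, limma adjusted p = 0.026), and Ptpn6, a phosphatase that acts on cytokine receptors (at least 2.98-fold, limma adjusted p = 0.00525). Between IFN-treated lines 1 of the 10 was called lower in Rictor-/- cells, against 8.94% of all features. That gene was Socs1 (log2 difference -2.19 ± 0.43, limma adjusted p = 0.00338).

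Among 21 genes whose proteins are reported to carry ISG15, 13 were tested, and the same 4 rose in each line. They were Eif2ak2, the RNA-activated kinase PKR, Ddx58, the RNA sensor RIG-I, and the antiviral GTPases Mx1 and Mx2. The median log2 change over the 13 was 0.08 in Rictor+/+ and 0.32 in Rictor-/- cells. Over all features 2.14% were called higher in Rictor+/+ and 0.794% in Rictor-/- cells. Eif2ak2 rose by 2.57 ± 0.22 in Rictor+/+ and 3.08 ± 0.22 in Rictor-/- cells, and Ddx58 by 2.78 ± 0.28 and 3.54 ± 0.28. Mx1, below background in both untreated groups, rose at least 48.05-fold in Rictor+/+ cells (limma adjusted p = 5.43e-07) and at least 2.35-fold in Rictor-/- cells (limma adjusted p = 0.0372). The responses of Mx1 differed between the lines (limma adjusted p = 0.00288), the only difference called among the 13. Itgal and Itgb2, the receptor for ISG15 outside cells, were not analysed here.

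The genes whose levels ran most like those of Isg15 and of Usp18 were found by Pearson correlation of log2 level over the 12 arrays among 8272 named genes. The 12 points share their 4 groups, so the coefficient mostly records the group means. For Isg15 they were Apol9a, an apolipoprotein L (0.9914), Rsad2, the antiviral enzyme viperin (0.9889), Isg20, an exonuclease (0.9873), Parp10, an ADP-ribosyltransferase (0.9841), and Helz2, a helicase (0.9831). For Usp18 they were Ifit3, an antiviral protein (0.9959), Ube2l6 (0.9935), Cd274, the checkpoint ligand PD-L1 (0.9932), Samd9l, an antiviral factor (0.9919), and Gbp3, a guanylate-binding GTPase (0.9909). By this measure Isg15 and Usp18 were at 0.9321 with each other, lower than each coefficient given here.

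The 5 genes most like Isg15 were all called lower in untreated Rictor-/- than in Rictor+/+ cells, which their likeness to Isg15 favours. The log2 differences were -2.30 ± 0.27 for Apol9a, -1.64 ± 0.20 for Isg20, -1.71 ± 0.26 for Parp10 and -1.30 ± 0.21 for Helz2, and Rsad2 was below background on all 3 untreated Rictor-/- arrays. Of the 5 most like Usp18, Ifit3 was called lower (-1.02 ± 0.28, limma adjusted p = 0.027). The others were not called, at -0.23 ± 0.29 for Ube2l6, -0.28 ± 0.32 for Cd274, -0.35 ± 0.27 for Samd9l and -1.04 ± 0.37 for Gbp3. Of these 10 genes 9 had a promoter window, and the ISRE core shown above lay in 6 of them, which were Apol9a, Rsad2, Ifit3, Cd274, Samd9l and Gbp3.

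**Figure D4:**
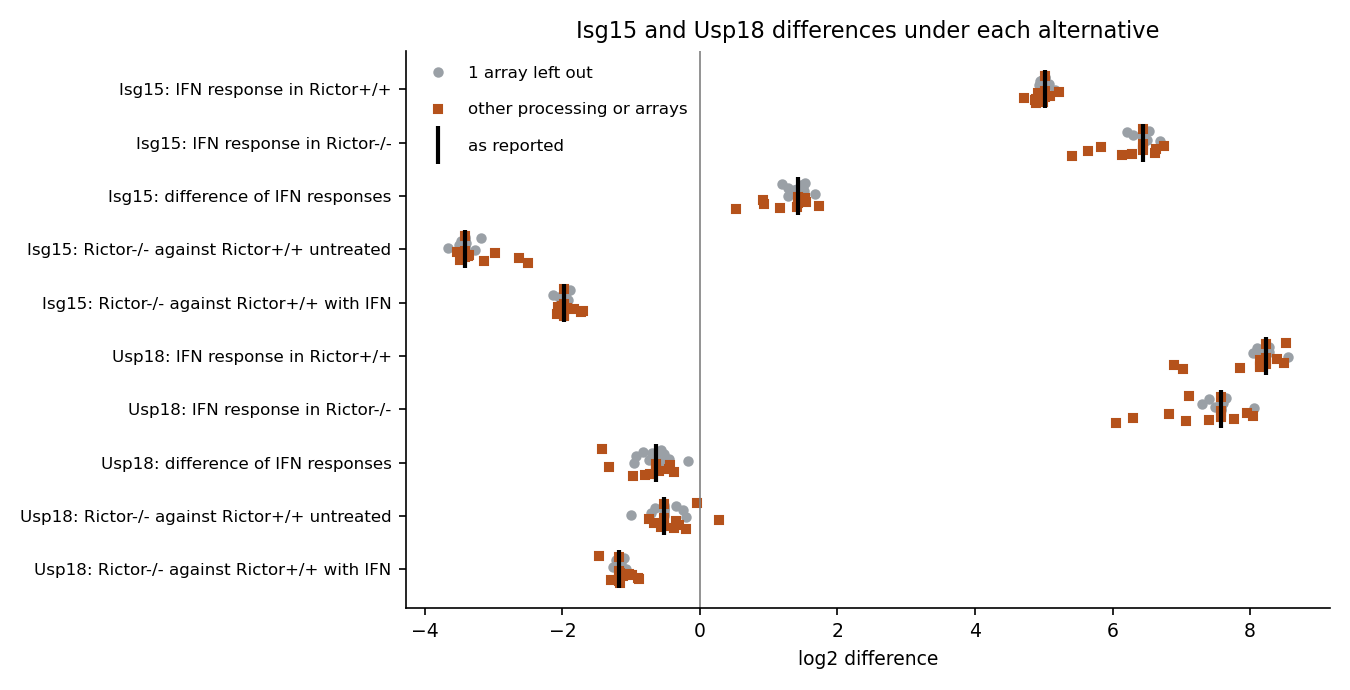
Log2 differences (horizontal axis) of Isg15 and of the brighter Usp18 probe in each comparison, as reported (black bar), with 1 array left out (grey circles) and under other processing or subsets of arrays (squares). For Usp18 the squares include the dimmer probe, which was below background on all untreated arrays. The rises with IFN-alpha stay far from 0, at 4.71 or above for Isg15 and 6.05 or above for Usp18, while the untreated Usp18 difference lies on both sides of 0, from -0.999 to 0.28.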

How the data were processed

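Total RNA of 12 samples was measured on Illumina mouse arrays. The authors deposited a non-normalized table of intensity, the average bead signal of each probe, made with BeadStudio per the submitters' processing notes, and a second table of log2 values for 17003 probes. The normalization of the deposited log2 table, its choice of probes and the software version are not given in the sources used here. Gene names came from the platform's annotation and covered only those 17003 probes, of which 14461 name 1 gene, 5 several and 2537 none. No symbol was changed through RefSeq.

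From the intensities, each array's background was set to the mode of its log2 signals, and its SD was estimated from dimmer probes. Normexp correction with an offset of 16, quantile normalization and log2 followed (R 4.3.3, limma 3.58.1). The table holds no detection p-values or control probes, so a probe counted as above background where its upper-tail probability under that background was below 0.01. The 20858 probes above background on at least 3 arrays were kept. The brightest probe stood for each named gene, and each kept probe naming no single gene stayed a feature of its own. This gave 17262 features, 8272 of them named genes and 8990 of them such probes. Some of the latter may read named genes. Quantile normalization removes any general shift between arrays. limma was fitted with a mean per group on all 12 arrays (8 residual and 4.51 prior degrees of freedom), two-sided, with Benjamini-Hochberg adjustment over all features and calls at an adjusted p under 0.05. Further probes of a gene were each tested with the brightest probe replaced by them. The fit was tried on simulated data, with equal responses in both lines and changed probes that were above background on all 12 arrays. Rises from background and true differences of responses were not simulated, so it does not bear on those. The balance of Usp18 to Isg15 is given as a description, without a test. A fold against a group below background is a lower bound against the background limit. For arrays, their number limits the precision.

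Isg15, Usp18 and the lists were chosen with earlier results of these data known. The genes named are Isg15, Usp18, the measured genes of ISGylation, genes of the other lists called in an interferon comparison (at most 6 a list), and the 5 most correlated with each. Ifnar2 and Ptpn6 were named outside this rule after their values were seen, and Usp14 as the only measured gene of its list. Alternatives were background correction, normalization, filter, probe, array sets, blocks of 4 consecutive title numbers, array weights, the groups fitted, the deposited log2 table and each array left out. The balance with the dimmer Usp18 probe was added after seeing the data.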

Additional observations from a re-analysis of the deposited data

Results flagged for a closer look

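The IFN-alpha responses of 2 genes described above differed between the lines by the limma test of the difference itself. For Trim25 the response was larger in Rictor-/- cells (limma adjusted p = 0.000638), with Rictor+/+ levels below background on all 6 arrays. For Mx1 it was larger in Rictor+/+ cells (limma adjusted p = 0.00288), with untreated levels below background in both lines.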

How the results depend on the processing

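The rises of Isg15 and Usp18 with IFN-alpha in both lines and the lower Isg15 of untreated Rictor-/- cells kept their direction and their call under each of the 24 or 25 alternatives run for them. Leaving out 1 array gave 4.93 to 5.16 and 6.21 to 6.69 for the rise of Isg15 in Rictor+/+ and Rictor-/- cells, 8.04 to 8.55 and 7.30 to 8.05 for Usp18, and -3.66 to -3.18 for untreated Isg15. For the difference in IFN-treated cells it gave -2.13 to -1.89 for Isg15 and -1.27 to -1.07 for Usp18, and the Usp18 call was lost in 9 of these 12 fits. It gave 1.74 to 1.98 for the balance by genotype and 2.04 to 2.29 by treatment. The Usp18 difference in IFN-treated cells also lost its call with cyclic loess (-0.89), with no filter (-1.17), with the array set as a block (-0.99), and within arrays 1 to 6 (-1.04) and 7 to 12 (-1.17). Within arrays 7 to 12 the Isg15 difference with IFN-alpha was -2.00 and missed the threshold. Array weights brought the difference of Isg15 responses (1.55) and the untreated Usp18 difference (-0.66) past the threshold, and the latter was reversed within arrays 1 to 6 (0.28). The balance was 2.14 and 1.81 by genotype, and 2.12 and 2.19 by treatment, within the 2 sets. Without background correction and in the deposited log2 table the treatment difference of the balance was 1.39 and 1.42. Counts of called genes moved within the 2 sets, which hold fewer arrays and differ in background and genotype make-up. For Usp genes raised in Rictor+/+ cells the count was 1 within arrays 1 to 6 and 0 within arrays 7 to 12. For ISGylation genes raised in Rictor-/- cells it was 2 within arrays 1 to 6. For ISGylation genes with a difference of responses it was 0 within each set. The last count was 2 with array weights, and 1 Usp gene was raised in Rictor-/- cells with the set as a block. The cause of these changes was not tested. Median scaling shifted the median of all features by -0.26 in the Rictor-/- response, by -0.27 in the difference of responses and by -0.26 between IFN-treated lines, and Isg15 and Usp18 kept their directions under it. No groups compared share a replicate number, so no replicate pairing comes from the labels. A block of 4 consecutive title numbers, each with 1 array of every group, changed no call of Isg15 or Usp18, and the Usp18 difference with IFN-alpha had an adjusted p of 0.0113 under it. Signals near background limit the untreated Usp18 and Trim25 values.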
